A study of Mus musculus with 6 samples.

Results

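The IGKV10 family is a small group of variable (V) gene segments of the mouse kappa light chain locus. It was represented by 3 of the 102 IGKV genes found in the kappa chain libraries, IGKV10-96, IGKV10-95 and IGKV10-94. Its members were taken as all clonotypes whose first listed V hit was an IGKV10 gene, with no use of read number or group. They made up 51 of 1818 IgK clonotypes of a mouse with regenerated B cells (iB-μMT) and 56 of 1696 of a C57BL/6 (B6) mouse. Each clonotype stands for 1 nucleotide sequence of the third complementarity-determining region (CDR3), the stretch that spans the joint between the V and J segments.

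The study transplanted hematopoietic progenitor cells (iHPCs) into B cell-deficient μMT mice and asked whether the B cells that arose carried a diverse B cell receptor repertoire. The iHPCs were derived in vitro from iR9X2-ESCs, embryonic stem cells of C57BL/6 background that carry a GFP transgene and a doxycycline-inducible cassette of Runx1, Hoxa9 and Lhx2 in the Rosa26 locus. The recipient was, per the methods, a μMT mouse of 8 to 10 weeks at transplantation. It was sublethally irradiated, drank water with doxycycline and gave naïve follicular (FO) B cells from its spleen at week 4 after transplantation. The control was a B6 mouse, from whose spleen the same cells were sorted. μMT mice cannot make a membrane IgM heavy chain and so lack mature B cells of their own. The gate described for this sort did not use GFP. Each group was 1 mouse and 1 IgK library, called here the iB library and the B6 library. The age of the B6 mouse is not given in the sources used here.

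A kappa chain is encoded by 1 V segment joined to 1 of the functional J segments IGKJ1, IGKJ2, IGKJ4 and IGKJ5, and the joint falls inside CDR3. Trimming of the segment ends and the addition of a few bases before ligation vary the codon at the joint, so that the same V and J pair can encode different residues there. IGKV10-96 is known as the light chain V gene of the Ars-A antibodies against the hapten arsonate, in which it is joined to IGKJ1 with an arginine at the joint.

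The family members lie close together on mouse chromosome 6. In the RefSeq gene table of assembly GRCm38.p6, IGKV10-96 (gene ID 692165) is at chr6:68631965-68632430, IGKV10-95 (gene ID 434031) at chr6:68680379-68680848 and IGKV10-94 (gene ID 667550) at chr6:68704508-68704978, each annotated as a gene segment of the kappa locus. IGKV10-96 and IGKV10-95 are 47.9 kb apart, and IGKV10-95 and IGKV10-94 are 23.7 kb apart. IGKV10-94, the nearest of the family to the J segments, lies 2018 kb before Igkj1.

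The V gene ends are shown because they set how far the members can be told apart from CDR3. They were read from clonotypes in which the V end was untrimmed, they begin at the conserved cysteine codon, and they are written 5′ to 3′. The capitals mark the positions at which IGKV10-96 and IGKV10-94 differ.
IGKV10-96: tgCcaAcagGGtaAtaCgcttcct
IGKV10-94: tgTcaGcagTAtaGtaAgcttcctcc
IGKV10-95: tgTcaGcagTAtaGtaAgcttcctcc
IGKV10-96 differed from both other members at 6 of 24 positions, the last of them position 17. IGKV10-94 and IGKV10-95 had the same 26 bases, with 0 of 26 positions different. The V reference of IGKV10-96 that MiXCR, the clonotype assembler, applied therefore covered 24 bases of CDR3, against 26 for the other 2 genes. Since each CDR3 sequence occurred once in a table and carried 1 V call, an IGKV10-94 and an IGKV10-95 joint of the same sequence would have been counted as 1 clonotype.

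The IgK libraries held 562884 reads for the iB library and 534314 for the B6 library, with a median of 42 and 37 reads per clonotype. At these depths, 3 reads were 0.000533% and 0.000561% of a library. The libraries had 894 clonotypes in common, with the same CDR3 sequence, V gene and J gene. These were 49.2% of the clonotypes and 91.7% of the reads in the iB library, and 52.7% and 93.5% in the B6 library. How the libraries came to share them was not tested. The shares of the family and of IGKV10-96 between the libraries are given with and without them. Because no molecular identifiers were described, amplified reads cannot be taken as separate molecules, and the 95% intervals below cover counting error only. As each group had a single library, Fisher's exact test (two-sided) compares the clonotypes of 2 libraries, not 2 conditions, and no difference could be checked against the spread between mice.

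All 3 members were used in both mice, and none of the shares that could be tested passed the test between the libraries. The family took 2.81% (95% Wilson interval 2.14 to 3.67) of IgK clonotypes in the iB library and 3.30% (2.55 to 4.26) in the B6 library. The difference was -0.497 percentage points (95% interval -1.67 to 0.648, p = 0.432 by Fisher's exact test). By reads, the family took 38954 reads or 6.92% in the iB library and 44218 reads or 8.28% in the B6 library. The read share was thus more than the clonotype share in both libraries. Without the clonotypes found in both libraries, the difference in clonotype share was -1.002 percentage points (p = 0.255 by Fisher's exact test).

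IGKV10-96 was the most used member. It had 32 clonotypes and 28190 reads in the iB library, and 36 clonotypes and 33439 reads in the B6 library. These were 1.76% (1.25 to 2.47) and 2.12% (1.54 to 2.92) of IgK clonotypes, and 5.01% and 6.26% of IgK reads. The clonotype shares differed by -0.362 percentage points (-1.31 to 0.561), with an adjusted p of 1 by Fisher's exact test with Benjamini-Hochberg adjustment. Without the clonotypes found in both libraries, the difference was -0.663 percentage points (adjusted p = 0.899 by Fisher's exact test; 0.899 to 1 over the alternatives tested). Within the family, IGKV10-96 accounted for 62.7% (49.0 to 74.7) of the clonotypes and 72.4% of the reads in the iB library, and for 64.3% (51.2 to 75.5) and 75.6% in the B6 library.

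IGKV10-94 came next. It had 14 clonotypes and 10558 reads in the iB library, and 13 clonotypes and 10484 reads in the B6 library. These were 0.770% and 0.767% of IgK clonotypes, a difference of 0.00357 percentage points (-0.620 to 0.612, adjusted p = 1 by Fisher's exact test). Its share of the family's reads was 27.1% and 23.7%, respectively. By the V calls, which place a joint common to it and IGKV10-94 under 1 gene, IGKV10-95 was the least used. It had 5 clonotypes and 206 reads in the iB library and 7 clonotypes and 295 reads in the B6 library. These clonotypes were too few to be tested. Its reads were 0.0366% and 0.0552% of the libraries. Counted as 1 gene because of their identical ends, IGKV10-94 and IGKV10-95 had 19 and 20 clonotypes, with a difference of -0.134 percentage points (-0.872 to 0.580, adjusted p = 1 by Fisher's exact test).

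Of the 69 IGKV genes tested, those with 20 or more clonotypes over both libraries, 0 passed an adjusted p of 0.05 by Fisher's exact test (0%), and 2 had an unadjusted p under 0.05. A clonotype share ratio of 1.5 or more in either direction was found for 9 of them (13%). Neither IGKV10-96, with a ratio of 0.829 for the iB library over the B6 library, nor IGKV10-94, with a ratio of 1.005, was among these.

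IGKV10-96 ranked higher by reads than by clonotypes. By read share it was in position 3 among IGKV genes in both libraries, and by clonotype share it was in position 17 in the iB library and 7 in the B6 library. By the mean clonotype share of the libraries it was in position 12. IGKV4-91 and IGKV6-17 stood just above it, with 2.09% and 1.89%, and 2.31% and 1.59%, in the iB library and the B6 library, respectively. IGKV8-30 and IGKV12-41 stood just below, with 2.04% and 1.77%, and 1.87% and 1.83%. In each library the interval of each of these 4 neighbours overlapped that of IGKV10-96. Their read shares were 1.13% and 0.751% for IGKV4-91, 4.87% and 3.94% for IGKV6-17, 1.35% and 0.753% for IGKV8-30, and 1.53% and 1.75% for IGKV12-41, each less than that of IGKV10-96 in the same library.

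**Figure D1:**
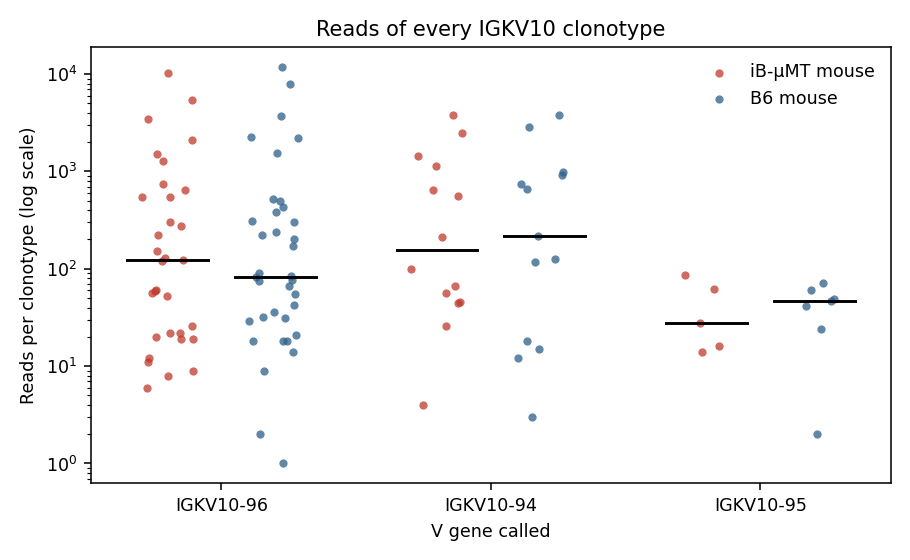
Reads of each IGKV10 clonotype on a log scale, by the V gene called and by library. Each point is 1 clonotype and the black line is the median. IGKV10-96 and IGKV10-94 each had a clonotype of 3758 reads or more in both libraries, and no IGKV10-95 clonotype had more than 86 reads.

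The reads of the family were concentrated in a few clonotypes. The read number per IGKV10-96 clonotype ran from 6 to 10137 with a median of 122 in the iB library, and from 1 to 11769 with a median of 83 in the B6 library. The leading clonotype held 36.0% and 35.2% of the gene's reads, and the leading 4 of each library held 75.1% and 76.6%, respectively. For IGKV10-94 the range was 4 to 3758 (median 157) in the iB library and 3 to 3820 (median 218) in the B6 library. IGKV10-95 clonotypes had at most 86 reads in the iB library and 71 in the B6 library.

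The 4 clonotypes of IGKV10-96 and of IGKV10-94 with the highest read share, as the mean of the libraries, are shown. They held 75.1% and 76.3% of the IGKV10-96 reads, and 83.3% and 80.2% of the IGKV10-94 reads, in the iB and the B6 library. The capitals mark the third codon from the 3′ end, called here the junction codon. In the tryptophan, tyrosine and phenylalanine clonotypes shown, V ended before this codon, whose bases were those of J. In the arginine and proline clonotypes, J began inside it.
IGKV10-96 with IGKJ1, tryptophan: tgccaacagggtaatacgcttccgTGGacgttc
IGKV10-96 with IGKJ2, tyrosine: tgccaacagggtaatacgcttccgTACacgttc
IGKV10-96 with IGKJ1, arginine: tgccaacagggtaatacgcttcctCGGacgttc
IGKV10-96 with IGKJ1, proline: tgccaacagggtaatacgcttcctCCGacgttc
IGKV10-94 with IGKJ1, tryptophan: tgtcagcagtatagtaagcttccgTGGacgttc
IGKV10-94 with IGKJ2, tyrosine: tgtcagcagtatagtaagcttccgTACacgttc
IGKV10-94 with IGKJ1, arginine: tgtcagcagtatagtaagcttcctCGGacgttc
IGKV10-94 with IGKJ4, phenylalanine: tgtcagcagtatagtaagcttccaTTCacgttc

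The tryptophan clonotype of IGKV10-96 had 10137 reads in the iB library and 11769 in the B6 library, which were 1.80% and 2.20% of all IgK reads, and it was in position 2 and 3 among all IgK clonotypes. The tyrosine clonotype had 5468 and 7902 reads (0.971% and 1.48%). The arginine clonotype had 3457 and 3668 reads, and the proline clonotype 2115 and 2182. All 4 were found in both libraries, and they were the 4 leading clonotypes of the gene in the iB library. In the B6 library the fourth place went to a phenylalanine clonotype with IGKJ4, which had 1525 reads in the iB library and 2282 in the B6 library.

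For IGKV10-94, the tryptophan clonotype had 3758 reads in the iB library and 3820 in the B6 library, and the tyrosine clonotype had 2480 and 2858. The arginine clonotype had 1429 and 987 reads, and the phenylalanine clonotype 1132 and 744. In the B6 library a leucine clonotype with IGKJ5 had more reads than the phenylalanine clonotype, with 556 in the iB library and 910 in the B6 library. The tryptophan and tyrosine clonotypes led both genes in both libraries. By mean read share, the 6 leading CDR3s of IGKV10-96 and the 6 leading CDR3s of IGKV10-94 were pairwise identical after position 17, the last position that differs between the V ends. Of all 46 distinct IGKV10-96 CDR3s, 21 had bases after that position that also occurred in a CDR3 of IGKV10-94 or IGKV10-95. These 21 held 97.6% of the IGKV10-96 reads in the iB library and 96.5% in the B6 library.

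All 4 functional J segments were joined to each member in both libraries. IGKV10-96 was joined to IGKJ1 in 10 clonotypes, IGKJ2 in 13, IGKJ4 in 3 and IGKJ5 in 6 in the iB library. The numbers in the B6 library were 16, 11, 4 and 5. IGKJ2 therefore had most IGKV10-96 clonotypes in the iB library and IGKJ1 in the B6 library, but the differences between the libraries did not pass the test. The IGKV10-96 and IGKJ1 pair was 0.550% and 0.943% of IgK clonotypes, a difference of -0.393 percentage points (-1.03 to 0.192), and the IGKV10-96 and IGKJ2 pair was 0.715% and 0.649%, a difference of 0.0665 points (-0.523 to 0.646). Both had an adjusted p of 1 by Fisher's exact test. None of the 36 V and J pairs tested passed (0%), and 0 had an unadjusted p under 0.05.

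Within each library, the J shares of IGKV10-96 were also compared with those of all other IGKV clonotypes. IGKJ1 was found in 31.2% (17.95 to 48.6) of IGKV10-96 clonotypes and 30.7% of the others in the iB library (adjusted p = 1 by Fisher's exact test), where 7.14% of the 42 genes tested passed. In the B6 library IGKJ1 was found in 44.4% (29.5 to 60.4) against 30.6%, a difference of 13.8 points (-1.23 to 30.0, adjusted p = 0.483 by Fisher's exact test), where 7.69% of 39 genes passed. IGKJ2 was found in 40.6% against 28.2% in the iB library (difference 12.4 points, -2.85 to 29.6) and in 30.6% against 27.0% in the B6 library (difference 3.51 points, -9.23 to 19.9), with adjusted p of 0.973 and 0.916 by Fisher's exact test and 0% of genes passing in either library.

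IGKJ4 and IGKJ5 were each found in a smaller share of IGKV10-96 clonotypes than of the others, by differences whose intervals included 0. IGKJ4 was found in 9.38% against 16.2% in the iB library (difference -6.81 points, -13.2 to 8.13) and 11.1% against 15.4% in the B6 library (difference -4.25 points, -11.2 to 10.05). The adjusted p was 0.946 and 1 by Fisher's exact test, and 2.38% and 0% of genes passed, respectively. IGKJ5 was found in 18.8% against 24.9% (difference -6.11 points, -16.2 to 10.6) and 13.9% against 27.0% (difference -13.1 points, -21.2 to 1.82), with adjusted p of 1 and 0.964 by Fisher's exact test and 0% of genes passing in both libraries.

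**Figure D2:**
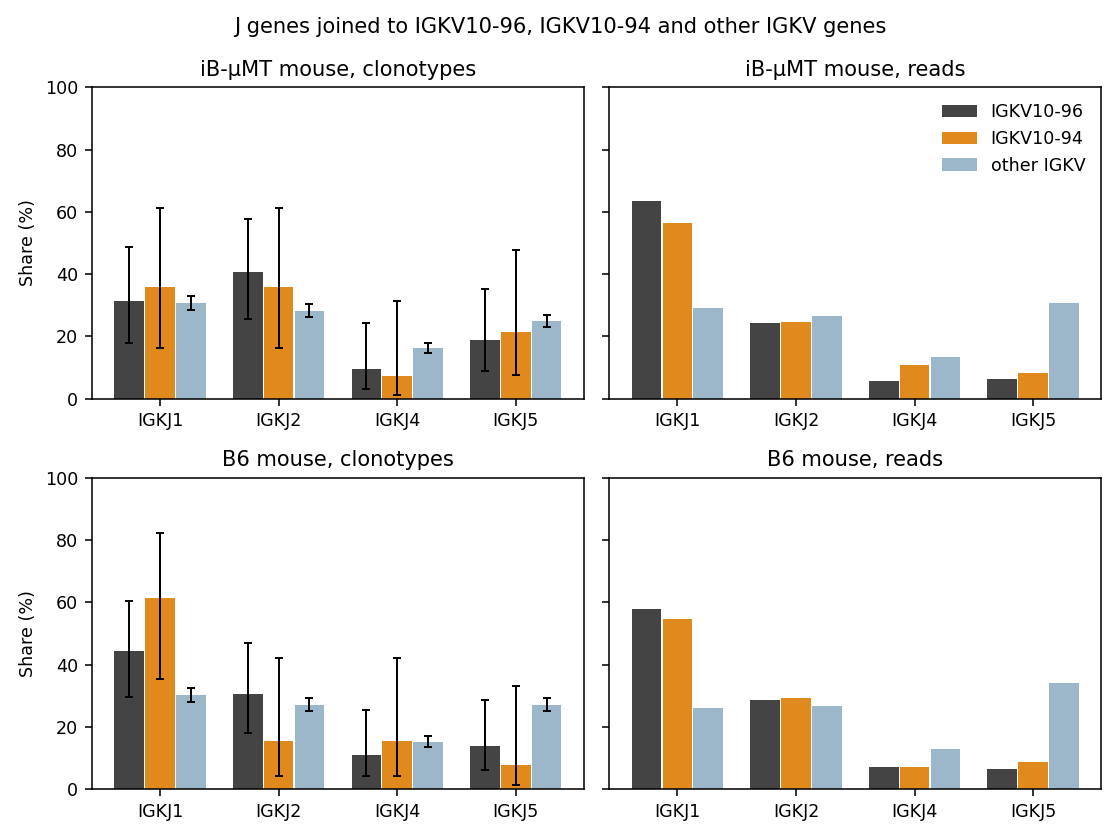
Shares of IGKJ1, IGKJ2, IGKJ4 and IGKJ5 in IGKV10-96, IGKV10-94 and all other IGKV genes outside the family, by clonotypes (left, with 95% Wilson intervals) and by reads (right, no error since reads are not independent), for the iB library (top) and the B6 library (bottom). The clonotype intervals of IGKV10-96 are wide, while IGKJ1 held 63.6% and 57.8% of its reads against 29.2% and 25.98% in the genes outside the family.

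By reads, IGKJ1 took the larger part of both genes. It held 63.6% of IGKV10-96 reads in the iB library and 57.8% in the B6 library, followed by IGKJ2 with 24.3% and 28.6%, IGKJ5 with 6.46% and 6.56%, and IGKJ4 with 5.65% and 7.10%. Among the 37 IGKV genes that had 20 or more clonotypes per library, the IGKJ1 read share of IGKV10-96 was in position 3 in both mice, where the median of the genes was 33.1% and 31.2%. Its IGKJ5 read share was in position 35 and 36. The leading clonotype carried much of this. Without it, IGKJ1 held 43.1% of the remaining IGKV10-96 reads in the iB library and 34.9% in the B6 library.

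IGKV10-94 was joined to IGKJ1, IGKJ2, IGKJ4 and IGKJ5 in 5, 5, 1 and 3 clonotypes in the iB library and in 8, 2, 2 and 1 in the B6 library. With fewer than 20 clonotypes in each library it was not tested against the other genes. IGKJ1 held 56.4% and 54.8% of its reads, and 32.3% and 28.8% without its leading clonotype. IGKV10-95 was joined to them in 1, 1, 1 and 2 clonotypes and in 2, 1, 2 and 2.

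The J profile of IGKV10-96 over clonotypes was nearest to that of IGKV1-110. Likeness was measured as the total variation distance, which is the summed share that would have to move from one J gene to another, averaged over the libraries and taken over 37 genes and 4 J genes. It was 6.84 points for IGKV1-110, 8.60 for IGKV3-2 and 11.1 for IGKV6-23. The profiles of IGKV10-96 itself in the 2 libraries were 14.9 points apart, which was more than any of these 3 distances.

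Tryptophan was the residue most often coded by reads at the junction codon of both main members, always in clonotypes joined to IGKJ1. Among IGKJ1 reads alone, tryptophan held 64.1% in the iB library and 65.3% in the B6 library for IGKV10-96. Outside the family it held 60.0% and 60.4% of IGKJ1 reads, shares near those of IGKV10-96. What sets the residue was not tested. In IGKV10-96, tryptophan held 40.7% of reads in the iB library and 37.7% in the B6 library, tyrosine 20.9% and 26.5%, arginine 14.2% and 12.3%, and proline 11.5% and 9.69%. Leucine (6.32% and 6.498%) and phenylalanine (5.62% and 6.93%) held most of the remainder. In IGKV10-94, the shares were 36.1% and 37.9% for tryptophan, 23.8% and 27.3% for tyrosine, 14.2% and 9.44% for arginine, and 8.56% and 9.65% for proline. Counted once per clonotype, tyrosine was most frequent in IGKV10-96, in 8 of 32 clonotypes in the iB library and 8 of 36 in the B6 library, against 4 and 7 for tryptophan.

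**Figure D3:**
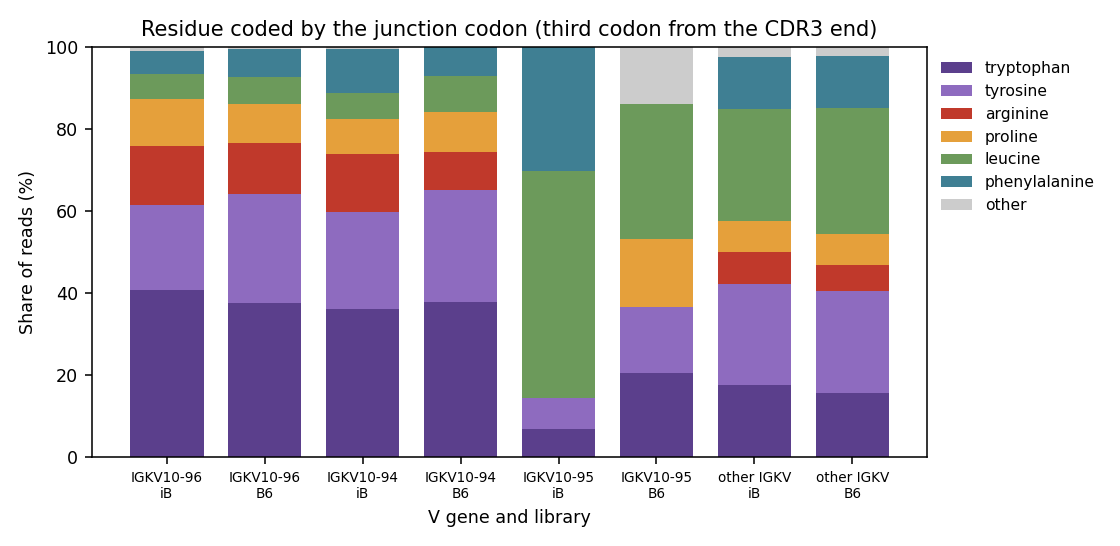
Shares of reads by the residue that the junction codon encodes, for each IGKV10 gene and for all IGKV genes outside the family, in each library (iB or B6). IGKV10-96 and IGKV10-94 had similar stacks in both libraries, with tryptophan at 36.1% to 40.7%; the bars of IGKV10-95 rest on 206 and 295 reads.

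An arginine junction codon with IGKJ1, which Ars-A antibodies also have, was found in both mice. Only this residue was counted, and whether the whole joint matched that of Ars-A antibodies was not examined. In IGKV10-96 it occurred in 2 of 10 IGKJ1 clonotypes in the iB library (20%, 5.67 to 51.0) and in 4 of 16 in the B6 library (25%, 10.2 to 49.5). These clonotypes had 3997 reads (22.3% of the reads of the pair) and 4115 reads (21.3%). One was the arginine clonotype shown above, with a CDR3 of 11 codons. Another, with a CDR3 of 10 codons, had 540 reads in the iB library and 431 in the B6 library. The other 2, also of 10 codons, were found in the B6 library with 14 and 2 reads. Among the genes outside the family, arginine was coded in 21.9% (18.6 to 25.6) and 23.5% (19.98 to 27.4) of IGKJ1 clonotypes, and in 25.1% and 23.4% of their reads. The intervals of IGKV10-96 included these values in both libraries. IGKV10-94 had arginine in 2 of 5 and 2 of 8 IGKJ1 clonotypes.

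CDR3 length of IGKV10-96 differed between a count of clonotypes and a count of reads. CDR3s of 11 amino acids, counted from the cysteine to the phenylalanine that bound it, were 13 of 32 clonotypes in the iB library and 11 of 36 in the B6 library, but held 89.0% and 92.5% of the reads. The clonotype share was 40.6% against 47.3% of other IGKV clonotypes in the iB library (difference -6.69 points, -22.0 to 10.6, adjusted p = 0.903 by Fisher's exact test), where 7.14% of genes passed. In the B6 library it was 30.6% against 52.7% (difference -22.2 points, -34.9 to -5.68, adjusted p = 0.154 by Fisher's exact test), where 2.56% passed. In IGKV10-94, 10 of 14 and 10 of 13 clonotypes had this length, with 98.4% and 97.5% of the reads.

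No stop codon was found in an IGKV10 CDR3. For IGKV10-96 this was 0 of 32 clonotypes in the iB library, which allows a share of up to 10.7% by the Wilson interval, and 0 of 36 in the B6 library, up to 9.64%. Other IGKV clonotypes had a stop codon in 0.896% and 1.27% (adjusted p = 1 in both by Fisher's exact test, 0% of genes passing). A share like that of the other genes would not be detectable at this number of clonotypes.

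Inserted nucleotides, the bases that MiXCR assigned to neither V nor J, gave the only difference between IGKV10-96 and other genes that passed the test. Joints without them were 17 of 32 IGKV10-96 clonotypes (53.1%) against 82.2% of other IGKV clonotypes in the iB library, a difference of -29.1 points (-45.8 to -13.0, adjusted p = 0.0025 by Fisher's exact test), where 9.52% of genes passed. In the B6 library they were 22 of 36 (61.1%) against 80.9%, a difference of -19.8 points (-36.1 to -5.55, adjusted p = 0.115 by Fisher's exact test), where 5.13% passed. Without the clonotypes found in both libraries, the differences were -43.7 and -12.5 points, on 10 and 14 IGKV10-96 clonotypes, too few to test. All 14 and 13 clonotypes of IGKV10-94 and all 5 and 7 of IGKV10-95 had no inserted nucleotide.

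The call changed with where the V reference was taken to end. Of the 15 and 14 IGKV10-96 clonotypes with inserted bases, 12 and 10 had a complete V end followed by C or CC. The V end had 24 bases, or 21 in 1 clonotype of the B6 library. C and CC are the bases that follow at the same place in the 26-base ends of IGKV10-94 and IGKV10-95. These 12 and 10 clonotypes held 98.6% of the reads of clonotypes with insertions in both libraries. The arginine and proline clonotypes of IGKV10-96 shown above were among them, while the arginine clonotype of IGKV10-94 with the same bases after position 17 was given no insertion. With these C and CC counted as V bases, 29 of 32 (90.6%) and 32 of 36 (88.9%) IGKV10-96 clonotypes had no insertion. The differences from other genes were then 8.43 points (-6.51 to 14.8, adjusted p = 0.632) and 7.99 points (-6.33 to 14.97, adjusted p = 0.945) by Fisher's exact test, with the other genes left as MiXCR placed them. Among those, 10 genes had a V reference of the same length. Inserted bases were called in 52 of their 185 clonotypes in the iB library and 62 of their 196 in the B6 library. Of these, 30 and 31 had C or CC after a complete V end. With these recounted as well, the other genes had no insertion in 83.9% and 82.8%, and the differences were 6.75 points (-8.18 to 13.1, adjusted p = 0.749) and 6.12 points (-8.19 to 13.1, adjusted p = 1) by Fisher's exact test. In both recounts the call of the iB library was lost and the difference was above 0, with an interval that included 0. A recount of this kind could only raise the IGKV10-96 share, so it does not test where the V segment ends. Whether the V ends of the 10 other genes continue with C or CC was not checked.

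The V ends of IGKV10-96 were little trimmed by this reference. In the iB library, 67.0% of its reads lacked 1 base of the V end and 27.8% lacked none, and in the B6 library the shares were 71.4% and 24.6%. In IGKV10-94, whose reference is 2 bases longer, 75.5% and 80.9% of the reads lacked 3 bases. Measured from the same base, these leading classes end at the same place in both genes.

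Most IGKV10 reads came from CDR3 sequences found in both mice, as did most reads of the whole libraries. The members had 73 distinct CDR3 sequences, of which 34 were found in both libraries, 17 in the iB library and not in the B6 library, and 22 in the B6 library and not in the iB library. The 34 sequences held 98.6% of the family's reads in the iB library and 97.5% in the B6 library. By CDR3, V gene and J gene, 54.9% of the family's clonotypes in the iB library and 50% in the B6 library were in common. They held 97.4% and 96.3% of the family's reads. Over all IgK clonotypes, those in common were 49.2% and 52.7% of clonotypes and held 91.7% and 93.5% of reads. The difference of the family from this background was not tested. The 17 had 4 to 86 reads with a median of 22, and the 22 had 1 to 387 reads with a median of 23.5. Among the 34, 28 had the same V and J call in both libraries, 4 had IGKV10-94 in one and IGKV10-95 in the other, and 2 had the same V gene and another J gene.

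**Figure D4:**
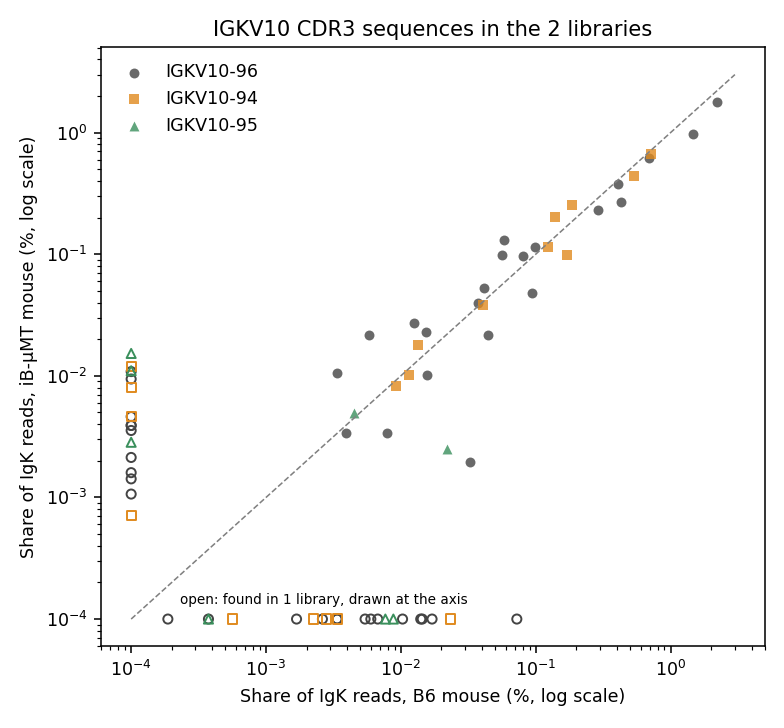
Share of IgK reads of each of the 73 IGKV10 CDR3 sequences in the B6 library and the iB library, on log scales. Filled symbols are the 34 found in both libraries, open symbols are those found in 1 library (drawn along the axes), shapes give the V gene called in the iB library or, where absent there, in the B6 library, and the dashed line marks equal shares. Sequences with large read shares lie near the line, and those found in 1 library have small shares.

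The read shares of the 34 sequences followed each other across the mice. The ratio of the share in the iB library to that in the B6 library ran from 0.0604 to 3.71 with a median of 0.925, and 26 of 34 lay within a factor of 2. Over these 34 sequences, which come from 1 library per mouse and are not independent replicates, the read numbers on a log10 scale had a Pearson r of 0.906 and a Spearman rho of 0.920. The lowest ratio belonged to an IGKV10-96 and IGKJ1 CDR3 of 10 codons with 11 reads in the iB library and 173 in the B6 library.

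IGKV10-96 clonotypes with the same V and J call in both mice were 22, which was 68.8% of its clonotypes in the iB library and 61.1% in the B6 library, with 99.2% and 97.5% of its reads. In the other IGKV genes 48.8% and 52.5% of clonotypes were found in both. The differences were 19.9 points (2.45 to 33.42, adjusted p = 0.600 by Fisher's exact test, 0% of genes passing) and 8.58 points (-7.84 to 22.9, adjusted p = 0.897, 2.56% passing), respectively. The 10 IGKV10-96 clonotypes that were not shared in the iB library had a median of 21 and at most 61 reads, and the 14 in the B6 library had a median of 30.5 and at most 387. IGKV10-94 had 6 such clonotypes in common, with 94.7% and 95.2% of its reads, and IGKV10-95 had 0. Without the clonotypes in common, IGKV10-96 made up 43.5% of the remaining family clonotypes in the iB library and 50% in the B6 library.

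The sequences that changed between IGKV10-94 and IGKV10-95 are shown because they bear on the count of each gene. The capitals mark the junction codon.
Leucine, IGKJ5: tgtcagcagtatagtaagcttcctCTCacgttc
Tryptophan, IGKJ1, 12 codons: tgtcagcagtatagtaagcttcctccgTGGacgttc
Tryptophan, IGKJ1, 10 codons: tgtcagcagtatagtaagctgTGGacgttc
Proline, IGKJ2 or IGKJ5: tgtcagcagtatagtaagcttCCCacgttc
The leucine CDR3 was called IGKV10-94 in the iB library with 100 reads and IGKV10-95 in the B6 library with 71 reads. The 12-codon tryptophan CDR3 was called IGKV10-95 with 14 reads and IGKV10-94 with 117 reads, respectively. The 10-codon tryptophan CDR3 was called IGKV10-94 with 57 reads and IGKV10-95 with 61 reads, and the proline CDR3 IGKV10-94 with 46 reads and IGKV10-95 with 49 reads. In these 4 pairs the library with the IGKV10-95 call thus had between 14 and 71 reads. No CDR3 of the family was called a gene outside the family in the other library.

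The separation of IGKV10-94 from IGKV10-95 rested on V bases before CDR3, which the tables score but do not print. The alignment score of the called gene exceeded that of the other by 8 to 167 for the IGKV10-94 clonotypes in the iB library and by 51.3 to 154 in the B6 library. For the IGKV10-95 clonotypes it did so by 100 to 149 and by 13 to 141. The 3 smallest gaps belonged to sequences listed above. The proline CDR3 was called IGKV10-94 by a gap of 8 in the iB library. The leucine CDR3 had IGKV10-94 ahead by 12.3 in the iB library and behind by 13 in the B6 library. The other scores of the listed sequences lay further apart. The IGKV10-94 score minus the IGKV10-95 score was -139.1 for the proline CDR3 in the B6 library. In the iB and the B6 library, it was -140 and 105.1 for the 12-codon tryptophan CDR3. For the 10-codon tryptophan CDR3 it was 121.9 and -132.7. Why the calls changed was not tested. IGKV10-96 was clear of its relatives. A second V hit was listed for 10 of its 32 and 17 of its 36 clonotypes, and the gap was 202 to 234 and 126 to 238.

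**Figure D5:**
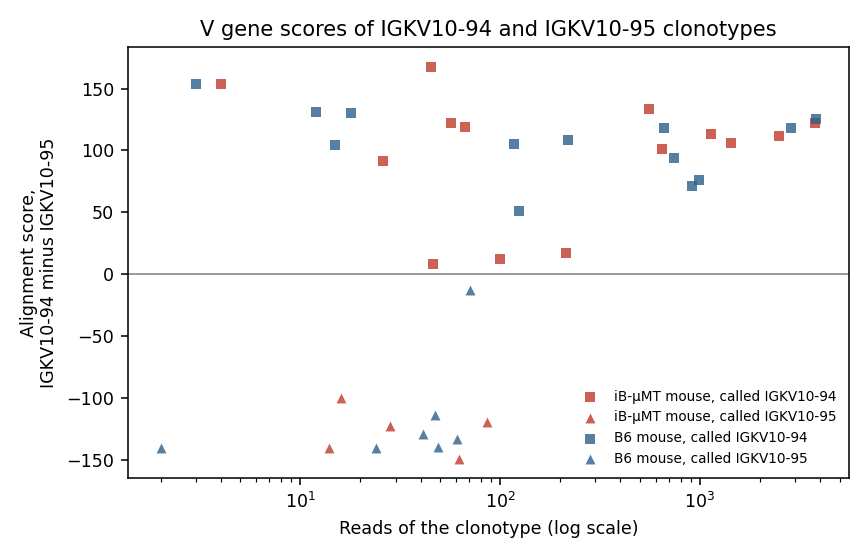
Alignment score of IGKV10-94 minus that of IGKV10-95, in the score units of the clonotype tables, against the reads of the clonotype on a log scale, for every clonotype called as either gene. Squares were called IGKV10-94, triangles IGKV10-95, and the grey line marks equal scores. Most clonotypes lie more than 50 score units from the line, and the 4 nearest to it are within 18.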

How the data were processed

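The IgK libraries of 1 iB-μMT mouse and 1 B6 mouse were analysed. Per the labels and methods, they were made from total RNA of sorted cells by rapid amplification of cDNA ends, and an Illumina MiSeq gave paired reads. The authors ran bcl2fastq and assembled clonotypes with MiXCR. For each clonotype they deposited a read count and its fraction of all reads, both without further normalization, with CDR3 sequence, gene hits and junction positions. The submitters' processing notes name mm10. Clonotypes with few reads were not filtered by a minimum (108 and 117 had 1 read), and PCR or sequencing errors can add clonotypes near an abundant one. The heavy and lambda chain tables were not used.

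The first V hit without its allele gave the gene. All 102 IGKV names matched the RefSeq gene table of GRCm38.p6, whose positions are given. No promoter of the family was matched. Clonotype shares were tested with Fisher's exact test, two-sided, with Benjamini-Hochberg adjustment over all IGKV genes or pairs with 20 or more clonotypes (over both libraries, or in each library for the 8 features) at 0.05. Intervals were 95% Wilson intervals and, for differences, Newcombe intervals. Named were all IGKV10 genes with their J genes, the 4 leading clonotypes of a gene, the arginine joints, the 3 genes of nearest J profile and the 4 neighbours in order; the remaining clonotypes were chosen for their calls or reads. The members and lists were chosen with earlier results of these data known.

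Alternatives were clonotypes with at least 2 or 5 reads, equal read numbers, a single best V hit, no stop codon, no clonotypes found in both libraries, merging of clonotypes 1 mismatch from one with 10 times the reads, weighting by reads, and at least 10 clonotypes per gene. Another 3, IGKV10-94 and IGKV10-95 as 1 gene and C or CC counted as V bases in IGKV10-96 or in all genes with a V end of its length, were chosen after seeing the data. The tests were checked on simulated data. For V gene shares, changes were planted in more clonotypes than the libraries held. Recovery there does not show which changes are detectable at the real numbers. Python 3.11.15, NumPy 2.4.6, SciPy 1.17.1, pandas 2.3.3 and Matplotlib 3.10.9 were used.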

Additional observations from a re-analysis of the deposited data

How the results depend on the processing

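Over 29 results and 12 alternatives, 201 of 235 values kept their direction and their side of the threshold or stayed within the interval. No IGKV gene passed the test between the libraries under any alternative run. No paired analysis was possible because each group had 1 library. Differences of IGKV10-96 from other genes are in percentage points. Weighted by reads, they became 2.68 (B6 library) and 3.39 (iB library) for CDR3s of 11 amino acids, 31.2 and 33.8 for IGKJ1, -27.2 and -24.0 for IGKJ5, and -2.26 for IGKJ2 in the iB library, and the family share of IGKV10-96 in the B6 library was 75.6%. Without clonotypes found in both libraries, they were 8.93 (11 amino acids), -19.8 (IGKJ1) and 8.34 (IGKJ5) in the iB library and -6.62 (IGKJ2) in the B6 library, and the family share was 43.5% and 50%. Merging gave -0.0917 for IGKJ1 in the iB library. For joints without insertions, C or CC counted as V gave 8.43 in the iB library and 7.99 in the B6 library, or 6.75 and 6.12 when applied to all genes with a V end of that length, and in the B6 library at least 5 reads gave -21.9 (adjusted p = 0.0356 by Fisher's exact test, over alternatives 0.0356 to 1). The clonotype share difference of IGKV10-94 between the mice, near 0 throughout, became -0.134 (with IGKV10-95 as 1 gene), -0.00459 (at least 2 reads), -0.0136 (at least 5), -0.0864 (by reads) and -0.00702 (without clonotypes in common). Against other genes, IGKV10-94 differed by -4.59 (IGKJ1) and 3.27 (IGKJ5) in the iB library and -2.70 (IGKJ4) in the B6 library without clonotypes in common, by 2.42 and -1.85 (IGKJ2) and -5.33 (IGKJ4, B6 library) by reads, and by -0.0347 (IGKJ4, B6 library) with merging. The causes of these changes were not tested. The C and CC settings follow the ends of IGKV10-94 and IGKV10-95, and no germline sequence of IGKV10-96 was used. Each gene had 5 to 36 clonotypes per library, and within a library differences of many points from other genes could fail the test. One such was -22.2 points for IGKV10-96 CDR3s of 11 amino acids in the B6 library (adjusted p = 0.154 by Fisher's exact test).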
